A study of Homo sapiens with 8 samples.

Results

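The tubulin genes described here are 10 genes chosen by name, with earlier results of these data known. The set holds the alpha-tubulin genes TUBA1A, TUBA1B, TUBA1C and TUBA4A, the beta-tubulin genes TUBB, TUBB2A, TUBB3, TUBB4B and TUBB6, and the gamma-tubulin gene TUBG1. They are 10 of 43627 genes in the deposited data, and each name matched a single Ensembl identifier. The count table held 9 of them, and TUBB3 was listed only in the normalized table, from which its reads were recovered as whole numbers. All 10 passed the filter on low counts.

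The 8 RNA-seq libraries came from MDA-MB-231, an established human line of triple-negative breast cancer, which lacks the oestrogen and progesterone receptors and HER2 amplification. Every group was grown in DMEM with serum and antibiotics and carried no genetic change named in the labels. Treatment lasted 12 h or 24 h and was either DMSO, the solvent used as vehicle control, or 0.5 µM EMD37, and each of these 4 groups had 2 libraries, A and B. EMD37 is a compound that the series title links to endoplasmic reticulum stress, and the labels give it by this code name alone. The labels do not say whether A and B were separate cultures. The p-values here therefore set differences between groups against a spread between libraries that may be only technical.

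Alpha- and beta-tubulin pair into dimers that polymerise into microtubules, the filaments of the mitotic spindle, of intracellular transport and of the core of cilia. Gamma-tubulin sits in a ring complex that starts new microtubules, mostly at the centrosome. Cells hold the amount of alpha- and beta-tubulin steady by autoregulation, in which an excess of free dimers triggers decay of tubulin mRNAs while they are being translated.

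The line and the depth were checked first. Libraries held 8994977 to 11437813 reads in the count table, and the 10 tubulin genes took 0.248% to 0.412% of all reads. Levels are given as CPM, reads per 1000000 reads of the tested genes after TMM scaling, with the SD of 2 libraries. The line's markers VIM, CD44, AXL, CAV1 and MSN, all 5 of 5 tested, summed to 6922 to 7372 CPM in vehicle and 5654 to 6578 CPM with EMD37, and CAV1, CD44 and AXL fell at 24 h; their part in the results was not tested. Luminal markers summed to 7.71 to 12.3 CPM and leukocyte markers to 0.498 to 1.48 CPM, with LYZ at 0 in every library, while fibroblast markers summed to 0.915 to 3.32 CPM.

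Upstream sequences are shown for a gene that fell after 24 h, TUBB4B, and for one that was not called, TUBB2A. They come from the 250 bases before the RefSeq start on GRCh38.p14, kept only up to the first base that GENCODE annotates as an exon of the gene. This left 176 bases for TUBB4B, at chr9:137241037-137241212 on the plus strand, and all 250 for TUBB2A, at chr6:3157545-3157794 on the minus strand, each written 5′ to 3′ on the strand of the gene. For TUBA1A, which rose, 244 of the 250 bases lie in an annotated exon and no sequence is shown. Capitals mark matches on either strand to CCAAT, to the GC box GGGCGG, to TATAA, to TTTGAA and to TGACGTCA, the cyclic AMP response element.
TUBB4B: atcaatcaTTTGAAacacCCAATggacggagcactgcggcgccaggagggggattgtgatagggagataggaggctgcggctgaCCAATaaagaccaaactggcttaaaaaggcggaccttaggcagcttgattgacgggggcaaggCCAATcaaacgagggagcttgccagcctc
TUBB2A: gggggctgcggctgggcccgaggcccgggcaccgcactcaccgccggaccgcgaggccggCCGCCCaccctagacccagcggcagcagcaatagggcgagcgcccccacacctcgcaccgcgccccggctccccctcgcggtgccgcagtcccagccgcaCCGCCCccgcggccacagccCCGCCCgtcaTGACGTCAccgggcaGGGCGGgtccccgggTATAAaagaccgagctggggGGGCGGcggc

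The TUBB4B stretch held 3 CCAAT matches and 1 TTTGAA, and TUBB2A had 5 GC boxes, 1 TATAA and 1 TGACGTCA. No marked motifs shared letters. Stretches of other genes differed from this pair. Of those that fell, TUBA1B had 2 GC boxes in 248 bases and TUBB6 had 1 in 68, both without CCAAT. TUBB had 1 CCAAT in 99 bases, TUBG1 had 1 CCAAT and 1 GC box in 243, and TUBA1C had no match in 75. TUBA4A, which also fell, had 0 bases left. In the full windows of 250 bases, TUBA1C had 1 CCAAT, 2 GC boxes, 1 TATAA and 2 TTTGAA, and TUBA4A had 4 GC boxes and 1 TATAA. TUBB3, which was not called, had 1 CCAAT and 2 GC boxes in a stretch of 187 bases. A link between motifs and calls was not tested. In the full windows of all 10 genes, of which 0 to 244 bases lay in exons of the gene itself, CCAAT was matched in 7 windows, GGGCGG in 8, TATAA in 5, TTTGAA in 2 and TGACGTCA in 1. The shares among all 35116 RefSeq windows of 250 bases were 32% for CCAAT, 42.6% for GGGCGG, 18.9% for TATAA, 13.3% for TTTGAA and 1.65% for TGACGTCA. A match describes the letters and not a bound site.

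The order of the genes was set by level per kilobase of the principal transcript, the one scale on which different genes are compared here. In vehicle at 12 h TUBB, the most widely expressed beta-tubulin, led with 606 ± 40.0 CPM per kb (SD, n = 2). TUBB4B followed at 494 ± 27.1 and TUBA1B, the main alpha-tubulin of dividing cells, at 309 ± 6.60 CPM per kb. TUBB6 stood at 136 ± 1.14, TUBA1C at 125 ± 2.96 and TUBA4A at 73.7 ± 1.76 CPM per kb. The lower end held TUBA1A at 40.1 ± 2.15, TUBG1 at 37.0 ± 6.09, TUBB2A at 22.8 ± 1.92 and TUBB3 at 2.08 ± 0.341 CPM per kb. TUBA1A and TUBG1, neighbours in this order, overlapped between libraries. Dividing by the length of all annotated exons placed TUBA1C above TUBB6 and TUBG1 above TUBA1A, so the order within those neighbours depends on the length used. In vehicle at 24 h TUBB and TUBB4B also overlapped, at 632 ± 38.6 and 601 ± 143 CPM per kb.

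Genes of one family share sequence, and some share exons with neighbours, which limits how reads can be assigned. The kit does not mark the strand, and how reads were counted where exons of different genes overlap was not stated in the labels or file headers. On GRCh38, TUBA1A (ENSG00000167552, chr12:49184796-49189324, minus strand) and TUBA1C (ENSG00000167553, chr12:49188736-49274603, plus strand) overlap each other. The share of the principal transcript inside exons of other genes was 13.0% for TUBA1A and 22.2% for TUBA1C. Of the 50-base stretches of TUBA1A, 33.6% also occur in transcripts of other genes, most in TUBA1C. For TUBA1C this was 33.1%, most in TUBA1A. TUBA1B (ENSG00000123416, chr12:49127782-49131397, minus strand) lies on the same chromosome, and exons of the antisense gene TUBA1B-AS1 cover 72.6% of its principal transcript. TUBA1B-AS1 itself was counted at 0.610 to 1.16 CPM. TUBA4A (ENSG00000127824, chr2:219249711-219278170, minus strand) had 29% of its transcript inside STK16 and TUBA4B. TUBB (ENSG00000196230, chr6:30720201-30725426, plus strand) had 20.1% inside ENSG00000272540, a gene counted at 1.06 to 4.52 CPM.

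TUBB2A (ENSG00000137267, chr6:3153669-3157526, minus strand) overlapped no exon of another gene, yet 58.7% of its 50-base stretches also occur in transcripts of other genes, most in its near copy TUBB2B. TUBB3 (ENSG00000258947, chr16:89921392-89938761, plus strand) had 89.5% of its principal transcript inside ENSG00000198211, which was listed at 0 reads in all 8 libraries. TUBB4B (ENSG00000188229, chr9:137241213-137243707, plus strand) shared 11% of its 50-base stretches with other genes, the lowest share of the 10. For TUBB6 (ENSG00000176014, chr18:12307669-12344320, plus strand) that share was 17.0%. TUBG1 (ENSG00000131462, chr17:42609676-42615234, plus strand) shared 22% of them, mostly with its close relative TUBG2. The share was 38.7% for TUBA1B, 17.9% for TUBA4A, 23.9% for TUBB and 33.4% for TUBB3.

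EMD37 against vehicle at 24 h gave the clearest differences. Of the 10 tubulin genes 7 fell, 1 rose and 2 were not called by edgeR's quasi-likelihood test at a Benjamini-Hochberg adjusted p below 0.05. Among all 14850 genes tested, 21.1% were called lower and 19.6% higher. In the fit that includes recovered reads, 3304 of 17863 genes were called lower and 3443 higher. The median log2 fold change was -0.45 over the 10 genes and -0.03 over all genes tested. Because the members were chosen with earlier results of these data known, these comparisons with all genes describe the set and do not test it. In bulk RNA, fewer cells of one kind and less RNA per cell cannot be told apart.

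**Figure D1:**
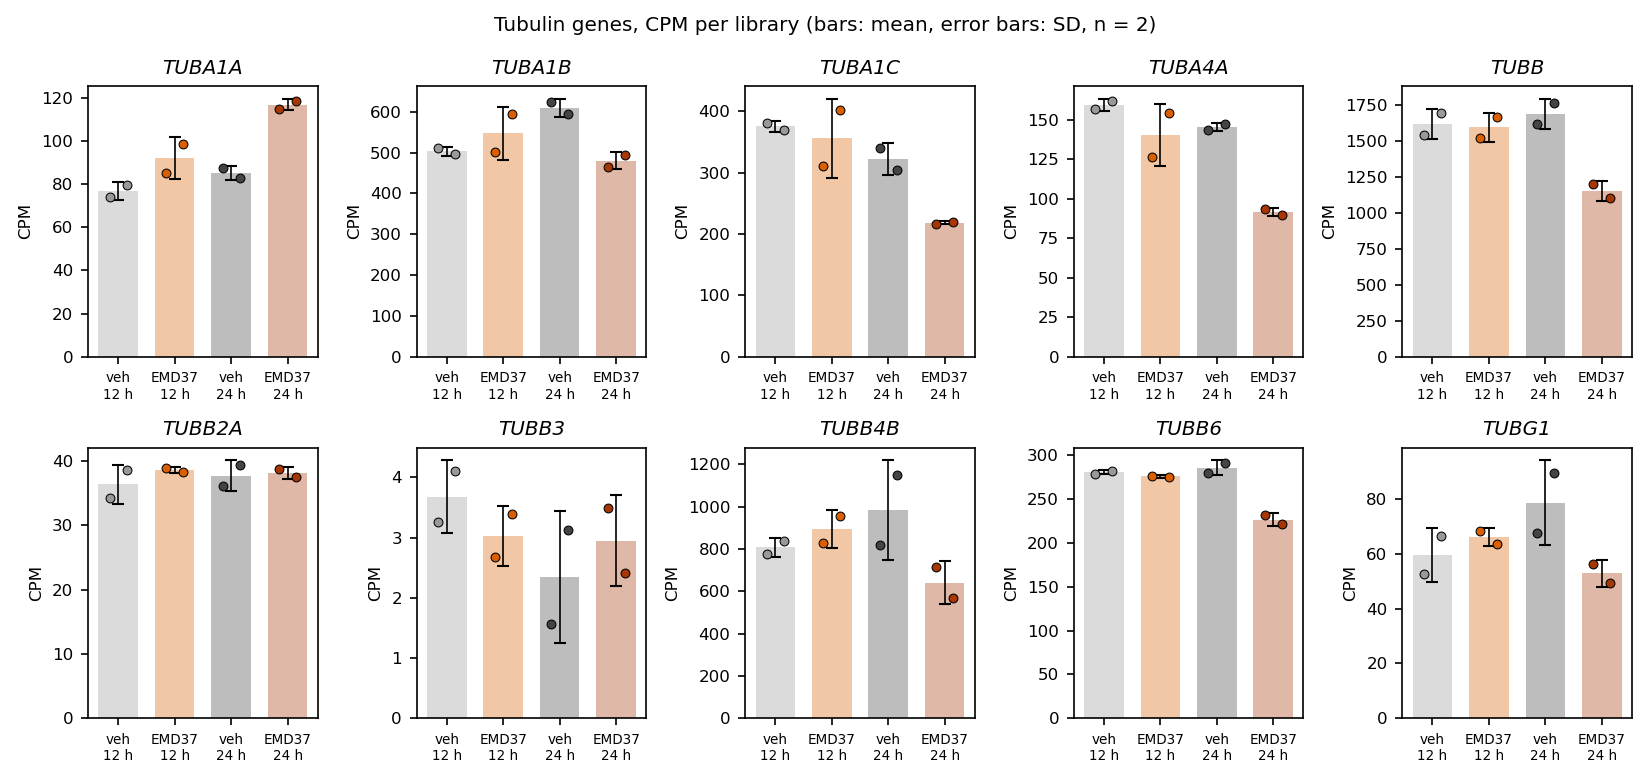
Level of each tubulin gene in CPM on a linear axis from 0, by group, with points for the 2 libraries, bars for the mean and error bars for the SD. TUBA1A is the gene whose EMD37 libraries at 24 h, 115 and 119 CPM, stand above every other library. For TUBA1B, TUBA1C, TUBA4A, TUBB, TUBB4B and TUBB6 both EMD37 libraries at 24 h lie below every other one. For TUBA1B this is narrow, with 494 CPM against 496 CPM in vehicle 12 h library B.

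Among the alpha-tubulins, TUBA1A is the isotype best known from developing neurons. It was at 87.6 and 82.7 CPM in vehicle at 24 h and at 115 and 119 CPM with EMD37. Both treated libraries were above both vehicle libraries. The log2 fold change was 0.46 (SE 0.09, adjusted p = 0.000604), a 1.37-fold rise, with a 95% interval of 1.20 to 1.56-fold.

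TUBA4A, whose mRNA encodes an alpha-tubulin without the C-terminal tyrosine of most alpha-tubulins, had the largest fall of the 10. It was at 144 and 147 CPM in vehicle and at 93.3 and 89.97 CPM with EMD37. The groups stood well apart, and the gene fell by 37.0% (log2 fold change -0.67, SE 0.09, adjusted p = 2.01e-05). STK16, which overlaps it, had a log2 fold change of -0.11 (adjusted p = 0.410). TUBA1C, a widely expressed alpha-tubulin, was at 341 and 304 CPM in vehicle and at 217 and 220.1 CPM with EMD37. Its groups did not overlap, and it fell by 32.2% (log2 fold change -0.56, SE 0.10, adjusted p = 0.000309). TUBA1B was at 625 and 594 CPM in vehicle and at 465 and 494 CPM with EMD37. Vehicle at 12 h stood at 511 and 496 CPM, near these treated libraries, so the fall is relative to vehicle at 24 h. Again the 24 h groups did not overlap, and the fall was the smallest among the alpha-tubulins that fell, at 21.3% (log2 fold change -0.35, SE 0.08, adjusted p = 0.00370). Without EMD37 24 h library A this call was lost, with a log2 fold change of -0.28 and an adjusted p of 0.0662.

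Among the beta-tubulins, TUBB was at 1615 and 1761 CPM in vehicle and at 1199 and 1099.6 CPM with EMD37. Both treated libraries lay below both controls, and TUBB fell by 31.9% (log2 fold change -0.55, SE 0.09, adjusted p = 7.25e-05). ENSG00000272540, whose exons lie over part of TUBB, also fell, with a log2 fold change of -1.82 (adjusted p = 0.000230 in the fit that includes recovered reads). TUBB6, a beta-tubulin of many non-neuronal tissues, was at 280 and 291 CPM in vehicle and at 232 and 221 CPM with EMD37. These groups did not overlap, and TUBB6 fell by 20.8% (log2 fold change -0.34, SE 0.07, adjusted p = 0.00124). AFG3L2, whose exons overlap other annotated exons of TUBB6 but not its principal transcript, had a log2 fold change of -0.09 (adjusted p = 0.795).

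TUBB4B, a broadly expressed beta-tubulin that is also abundant in cilia, was at 818 and 1150.1 CPM in vehicle and at 713 and 568 CPM with EMD37. The vehicle libraries differed more than for most members, with B above A by 40.6%, but both treated libraries were lower. TUBB4B fell by 34.9% (log2 fold change -0.62, SE 0.13, adjusted p = 0.00136). FAM166A, whose exons cover 7.57% of its transcript, rose by 1.56 on the log2 scale (adjusted p = 0.00891) at 0.498 to 2.43 CPM. Without vehicle 24 h library B the log2 fold change was -0.35 (adjusted p = 0.00169).

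TUBB2A and TUBB3 were not called. TUBB2A, a beta-tubulin enriched in neurons, was at 36.1 and 39.4 CPM in vehicle and at 38.8 and 37.5 CPM with EMD37. The groups overlapped, and the log2 fold change of 0.01 had a 95% interval of -0.22 to 0.25 (adjusted p = 0.932). TUBB3, the classic neuronal beta-tubulin, was at 1.57 and 3.12 CPM in vehicle and at 3.48 and 2.41 CPM with EMD37, from 17 to 33 reads a library at 24 h. These groups also overlapped, and the 95% interval of the log2 fold change ran from -0.36 to 1.09. A change of this gene within that range is therefore not excluded.

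The gamma-tubulin gene TUBG1 was at 67.6 and 89.5 CPM in vehicle and at 56.4 and 49.3 CPM with EMD37. The treated libraries were lower than both controls although the controls themselves differed by 32.3%. They were not lower than both vehicle libraries at 12 h, which stood at 52.7 and 66.6 CPM, so the fall is relative to vehicle at 24 h. TUBG1 fell by 32.6% (log2 fold change -0.57, SE 0.13, adjusted p = 0.00256). Without vehicle 24 h library B its log2 fold change was -0.36 (adjusted p = 0.00840). The exons of RETREG3, which cover 6.58% of the TUBG1 transcript, belong to a gene that also fell, with a log2 fold change of -0.30 (adjusted p = 0.00381). RETREG3 was counted at 135 to 175 CPM, above TUBG1 in every group. At 12 h it had been called lower as well, by 0.27 (adjusted p = 0.0278 in edgeR). Its part in the TUBG1 counts was not tested.

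Summed by class, the 4 alpha-tubulin genes were at 1197 and 1128 CPM in vehicle at 24 h and at 890.4 and 923 CPM with EMD37, a mean of 78.0% of vehicle. The 5 beta-tubulin genes were at 2751 and 3245 CPM in vehicle and at 2186 and 1929 CPM with EMD37, a mean of 68.6%. Neither sum overlapped between the groups. The sum over all 10 genes was 71.2% of vehicle at 24 h and 102% at 12 h.

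The share of each gene in its class was described without a test of its own. TUBA1A provided 7.50% and 7.47% of alpha-tubulin CPM per kb in vehicle at 24 h, and 13.0% and 12.9% with EMD37. TUBA1B had a mean share of 63.1% in vehicle and 62.6% with EMD37, while TUBA4A went from a mean of 11.3% to 9.01% and TUBA1C from 18.1% to 15.5%. Within the beta class, TUBB2A went from a mean of 1.70% to 2.51%, and the means of TUBB were 45.5% and 45.1%.

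Ratios of reads within a library do not depend on how libraries are scaled. For every 100 reads of TUBA1C there were 25.7 and 27.2 reads of TUBA1A in vehicle at 24 h and 53.0 and 53.9 with EMD37. At 12 h the same ratio was 19.4 and 21.6 in vehicle and 27.4 and 24.6 with EMD37, so the treated libraries at 24 h stood above all others. For every 100 reads of TUBB there were 2.23 and 2.24 reads of TUBB2A in vehicle at 24 h and 3.23 and 3.41 with EMD37. TUBB6 stood at 17.3 and 16.6 reads for every 100 of TUBB in vehicle and at 19.3 and 20.1 with EMD37. For TUBB4B the groups overlapped, with 50.7 and 65.3 reads for every 100 of TUBB in vehicle and 59.4 and 51.7 with EMD37. A ratio shows that a pair of genes changed unequally, not that either stayed the same.

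**Figure D2:**
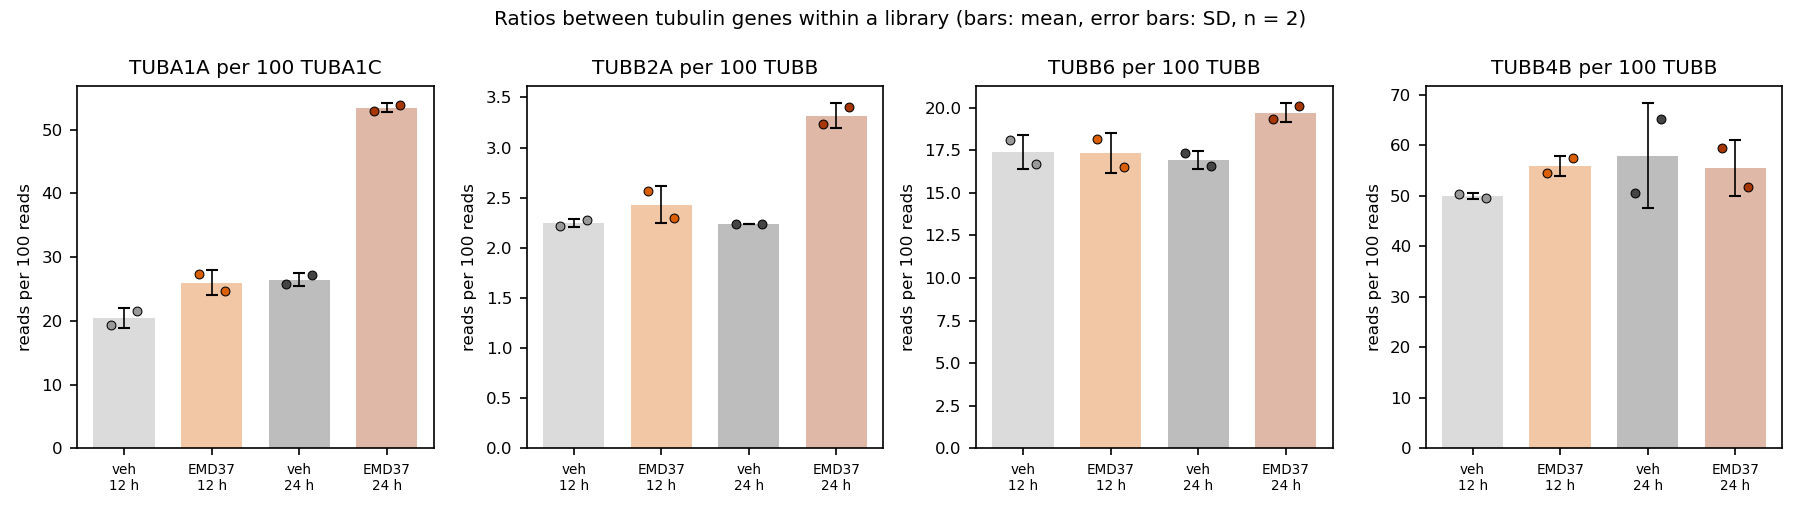
Reads of TUBA1A for every 100 reads of TUBA1C, and of TUBB2A, TUBB6 and TUBB4B for every 100 reads of TUBB, on linear axes from 0, with points for the 2 libraries, bars for the mean and error bars for the SD of each group. In the panels of TUBA1A, TUBB2A and TUBB6 both EMD37 libraries at 24 h lie above the other 6 libraries, while those of TUBB4B overlap with vehicle. TUBA1A stood at 53.0 and 53.9 in that group and at most at 27.4 elsewhere.

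At 12 h none of the 10 tubulin genes was called by edgeR's quasi-likelihood test, nor by DESeq2, and 1 had an unadjusted p below 0.05 in edgeR. Among all tested genes 8.7% were called at this time, 5.27% higher and 3.43% lower. The median log2 fold change was 0.03 over the 10 genes and -0.01 over all genes tested.

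The gene with the unadjusted p below 0.05 was TUBA1A, at 73.9 and 79.7 CPM in vehicle at 12 h and at 85.1 and 98.8 CPM with EMD37. Its groups did not overlap, and the log2 fold change was 0.26 (95% interval 0.07 to 0.45, adjusted p = 0.0902). In a fit of the 12 h groups alone the adjusted p of TUBA1A was 0.0149, and without EMD37 12 h library B its log2 fold change was 0.15 (adjusted p = 0.592). TUBA4A was at 157 and 162 CPM in vehicle and at 126 and 154 CPM with EMD37, with a log2 fold change of -0.18 (adjusted p = 0.230). TUBB was at 1541 and 1692 CPM in vehicle and at 1521 and 1666 CPM with EMD37, and TUBB6 at 279 and 282 CPM and at 277 and 275 CPM.

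TUBA1B was at 511 and 496 CPM in vehicle at 12 h and at 501 and 594 CPM with EMD37, and TUBA1C at 381 and 369 CPM and at 311 and 401 CPM, so in both genes EMD37 library B was high and A was near or below vehicle. TUBB4B was at 777 and 840.1 CPM in vehicle and at 831 and 956 CPM with EMD37. TUBG1 was at 52.7 and 66.6 CPM in vehicle and at 68.3 and 63.7 CPM with EMD37, and TUBB2A at 34.2 and 38.6 CPM and at 39.0 and 38.3 CPM. TUBB3 was at 3.25 and 4.10 CPM in vehicle and at 2.67 and 3.38 CPM with EMD37. Groups overlapped for each of these 6 genes. In all, groups did not overlap for 3 of the 10 members at 12 h and for 8 at 24 h, against 54.8% and 66.8% of all genes tested.

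**Figure D3:**
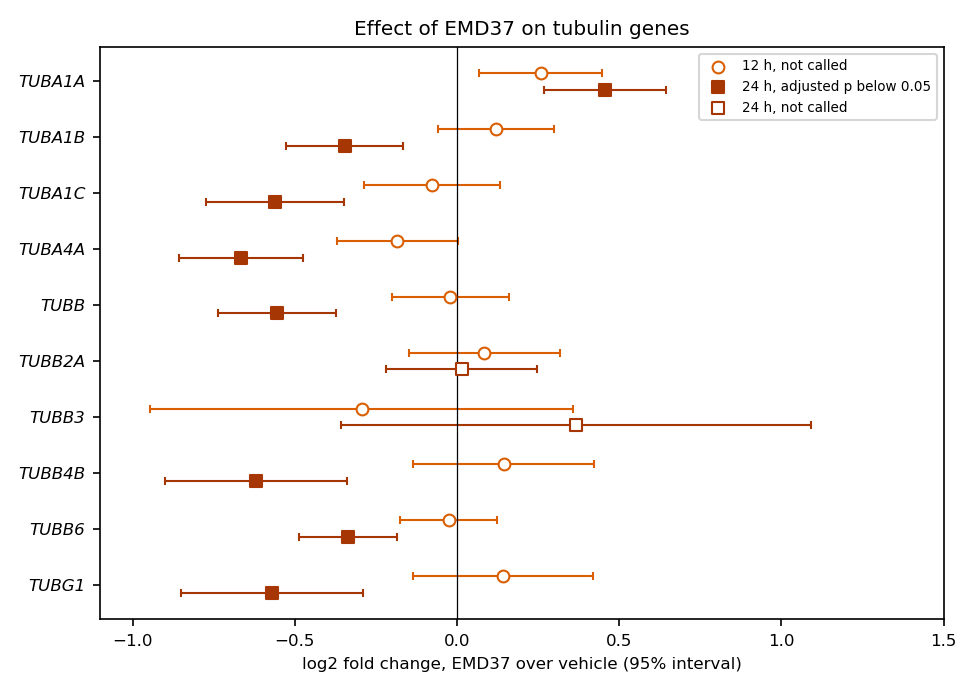
Log2 fold change of EMD37 over vehicle for each tubulin gene at 12 h (circles) and 24 h (squares), with the 95% interval from edgeR, filled where the adjusted p was below 0.05. At 24 h 7 filled squares lie below 0 and TUBA1A alone has a filled square above it, at 0.46, while no circle is filled.

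Whether the effect differed between the times was tested as the interaction, the effect at 24 h minus the effect at 12 h. It was lower at 24 h for 7 of the 10 genes and higher for 0, against 7.94% and 7.96% of all genes tested. Of the other 3 genes, none was called by edgeR, 0 had an unadjusted p below 0.05, and DESeq2 called 0 higher. The difference was largest for TUBB4B, at -0.76 on the log2 scale (adjusted p = 0.0107), and for TUBG1, at -0.71 (adjusted p = 0.0157). For TUBB it was -0.53 (adjusted p = 0.00652), the smallest p of the 10. The remaining calls were TUBA1C at -0.48, TUBA4A at -0.48, TUBA1B at -0.47 and TUBB6 at -0.31. For TUBA1A the difference was 0.20 (adjusted p = 0.320), so its effect at 24 h was not shown to differ from that at 12 h.

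These calls rested on 2 libraries per group, and leaving out a single library leaves 1 in a group. Fewer tubulin genes were called lower in each such fit. Over all genes tested, lower calls also became fewer without any single library at 12 h or of EMD37 at 24 h. They rose without either vehicle 24 h library. The DESeq2 test on all 8 libraries gave 5 lower calls of tubulin genes. The difference for TUBB4B was -0.50 without vehicle 24 h library B. Without EMD37 12 h library B it was -0.28 for TUBA1C and -0.32 for TUBA4A.

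The vehicle libraries at 24 h and 12 h were compared to see how the genes moved without EMD37. None of the 10 was called by edgeR or by DESeq2, 4 had an unadjusted p below 0.05, and 5.99% of all genes tested were called. TUBG1 had a log2 difference of 0.39 (adjusted p = 0.0880), TUBA1B one of 0.28 (adjusted p = 0.0625), TUBB4B one of 0.28 (adjusted p = 0.211) and TUBA1C one of -0.22 (adjusted p = 0.199). TUBG1, TUBA1B and TUBA1A were higher in both vehicle libraries at 24 h than in both at 12 h. TUBA1C, TUBA4A and TUBB3 were lower in both, and the times overlapped for TUBB, TUBB2A, TUBB4B and TUBB6. The share of all genes without overlap between the vehicle times is not given here, so no result is read from these members. Leaving out a library leaves 1 in its group. Without vehicle 24 h library A, the log2 difference was 0.57 for TUBG1, 0.49 for TUBB4B and -0.32 for TUBA1C. Calls over all genes tested rose in that fit, so no result is read from calls of the members there. Without vehicle 24 h library B, the difference was 0.33 for TUBA1B, 0.19 for TUBG1, 0.03 for TUBB4B and -0.12 for TUBA1C. Without vehicle 12 h library A, TUBG1 stood at 0.24.

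The genes also differed in how they varied together over the 8 libraries, which include the treatment groups, so these correlations describe shared levels and carry no test. TUBB and TUBB6 had a Pearson r of 0.979 in log2 CPM, TUBA1C and TUBA4A one of 0.958 and TUBA4A and TUBB one of 0.949. TUBB4B and TUBG1, both high in vehicle 24 h library B, had an r of 0.889. TUBA1A ran opposite to TUBB6, with an r of -0.894. Among 8987 other genes with a mean of at least 10 CPM, those most like TUBA1A over the 8 libraries were PSMC4, a proteasome ATPase subunit (r = 0.987), ZNF622 (r = 0.979) and UBB, a ubiquitin gene (r = 0.978). Most like TUBA4A were TRIM21, a ubiquitin ligase (r = 0.994), PIK3R3, a regulatory subunit of PI3 kinase (r = 0.990), and IGFBP4, which binds insulin-like growth factors (r = 0.989).

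The human genome has further tubulin genes, of which 12 were listed. Of these 4 were tested, and at 24 h 2 rose and 1 fell, with a median log2 fold change of 0.14. For this and each list that follows, the shares over all genes tested at 24 h were 19.6% higher and 21.1% lower. TUBE1, which encodes the centriolar epsilon-tubulin, was at 35.4 and 33.9 CPM in vehicle at 24 h and at 55.8 and 61.9 CPM with EMD37, a log2 fold change of 0.76 (adjusted p = 2.35e-05). At 12 h it was at 48.4 and 43.5 CPM in vehicle and at 74.7 and 67.7 CPM with EMD37, and it had risen already, by 0.63 (adjusted p = 0.000530). TUBD1, the delta-tubulin gene, was at 13.6 and 10.3 CPM in vehicle at 24 h and at 18.5 and 18.2 CPM with EMD37 (log2 fold change 0.61, adjusted p = 0.00833). Treated libraries stood above vehicle for both of these genes at 24 h. TUBB2B fell, from 2.41 and 1.72 CPM to 0.739 and 1.06 CPM (log2 fold change -1.19, adjusted p = 0.0341), at a level of 7 to 26 reads a library.

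Genes for proteins that fold tubulin were called in both directions. Of 6 folding cofactors 1 rose and 1 fell at 24 h, near the shares of all genes (19.6% and 21.1%), with a median log2 fold change of -0.11: TBCEL, which acts on tubulin dimers, rose by 0.47 (adjusted p = 0.000254), TBCD, which holds beta-tubulin during dimer assembly, fell by 0.58 (adjusted p = 0.00587), and TBCC had a log2 fold change of -0.25 (adjusted p = 0.0649). Of 14 genes of the CCT chaperonin and prefoldin, which fold newly made tubulin and actin, 2 rose and 3 fell, also near those shares, with a median of 0.05. TCP1, a chaperonin subunit, rose by 0.35 (adjusted p = 0.00800), and the prefoldin subunits PFDN1 and PFDN5 fell by 0.38 (adjusted p = 0.00277) and 0.37 (adjusted p = 0.00594). The other calls were the prefoldin subunits PFDN2, which rose, and PFDN6, which fell.

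Genes of the gamma-tubulin ring complex and its attachment factors had 4 falls and 0 rises among 12 tested, with a median of -0.19, where 21.1% of all genes fell and 19.6% rose. TUBGCP5, a subunit of the ring, had the largest of the 3 changes named here, with a log2 fold change of -0.96 from 25.9 and 22.6 CPM in vehicle to 12.0 and 12.6 CPM with EMD37 (adjusted p = 4.50e-05, in the fit that includes recovered reads). NEDD1, which attaches the ring to the centrosome and spindle, fell by 0.45 (adjusted p = 0.00104), and the subunit TUBGCP3 fell by 0.37 (adjusted p = 0.0305). The last was CDK5RAP2, a centrosomal anchor of the ring. Genes that act in tubulin mRNA autoregulation had 1 fall and 0 rises among 5, a share of falls near that of all genes. CNOT11, the adapter of the deadenylase complex in that pathway, fell by 0.55 (adjusted p = 0.00117), with CNOT10 at -0.35 (adjusted p = 0.0563) and SCAPER at -0.24 (adjusted p = 0.343). TTC5, which recognises the nascent tubulin chain, had a log2 fold change of -0.12 (adjusted p = 0.383).

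Enzymes that modify tubulin had 3 rises and 6 falls among 16 tested at 24 h, beside 19.6% and 21.1% of all genes. TTLL5, a polyglutamylase, fell by 0.70 (adjusted p = 0.000611), VASH1, which removes the C-terminal tyrosine of alpha-tubulin, fell by 1.20 (adjusted p = 0.00194), and TTLL7, another polyglutamylase, rose by 0.45 (adjusted p = 0.00692). The deacetylase SIRT2 and the deglutamylase AGTPBP1 were the other rises. Of 17 microtubule-associated proteins 5 rose and 4 fell. MAP1B, which stabilises microtubules, rose by 0.69 (adjusted p = 2.21e-06), the spindle factor TPX2 fell by 0.61 (adjusted p = 9.20e-06) and the plus-end protein CLIP1 rose by 0.53 (adjusted p = 2.26e-05). MAP4, MAPT and CLASP1 were the other rises, and STMN1, STMN3 and CKAP5 the other falls.

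Severing enzymes and depolymerising kinesins had 2 rises and 5 falls among 9, beside 19.6% and 21.1% of all genes, with a median of -0.47. The mitotic kinesins KIF2C and KIF18B fell by 0.75 (adjusted p = 2.15e-06) and 0.80 (adjusted p = 0.000105). FIGN, a microtubule-severing enzyme, rose by 0.83 (adjusted p = 2.78e-05), from 34.0 and 37.7 CPM in vehicle to 67.6 and 59.8 CPM with EMD37. KIF18A, KATNAL1 and FIGNL1 were the other falls. At 12 h FIGN had fallen, by 0.42 (adjusted p = 0.0422), and its effects at the 2 times differed by 1.25 on the log2 scale (adjusted p = 0.000103). Over the 83 tested genes of all 8 related lists, calls at 12 h were 3 rises (TUBE1, TTLL7 and MAP1B) and 2 falls (FIGN and AGBL3, a deglutamylase), shares of 3.61% and 2.41% beside 5.27% and 3.43% of all genes tested.

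**Figure D4:**
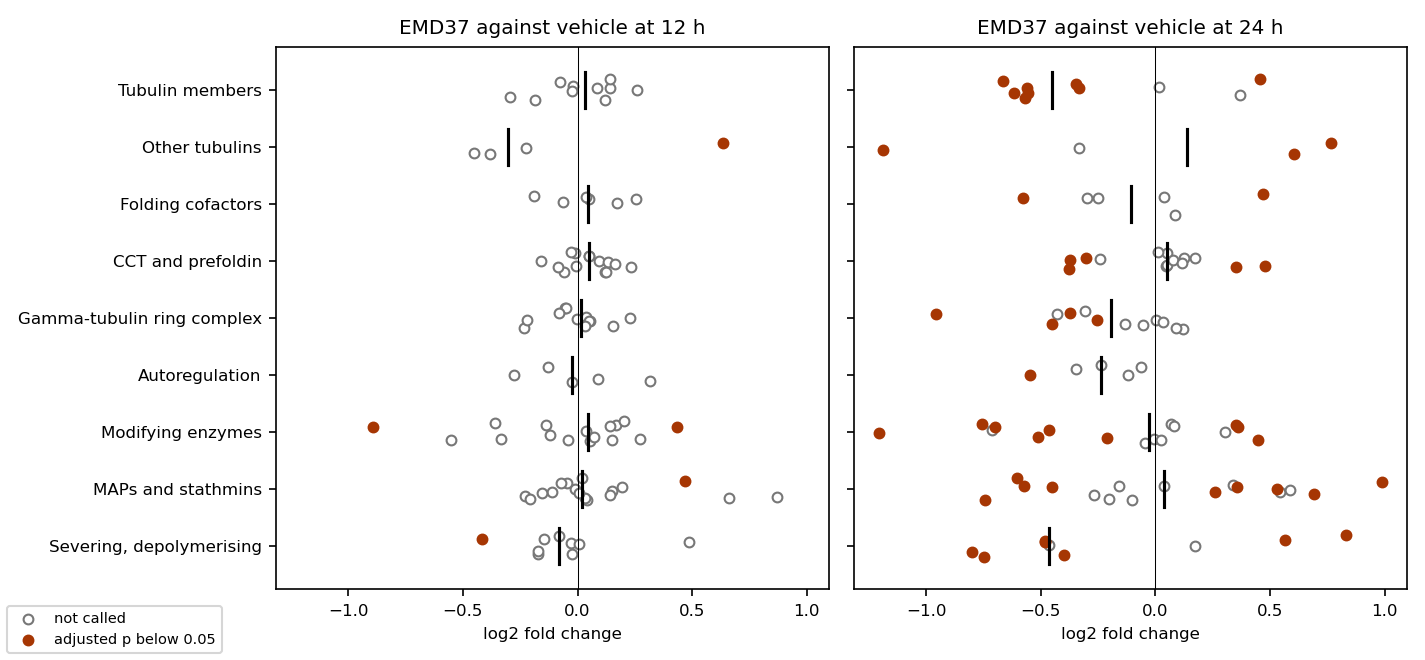
Log2 fold change of EMD37 over vehicle at 12 h (left) and 24 h (right) for each tested gene of the tubulin set and of 8 related lists, spread vertically at random within a list, with filled points for adjusted p below 0.05 and a black bar at the list median. The 10 tubulin genes have a median of 0.03 at 12 h and -0.45 at 24 h, and the gamma-tubulin ring complex and autoregulation lists have no filled point above 0.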

How the data were processed

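Total RNA of MDA-MB-231 cells entered the TruSeq V2 kit, per the labels' protocols. FastQC, STAR and DESeq2 on hg38 are listed in the submitters' processing notes; neither versions nor a counting program are stated there. The authors deposited whole-number counts of reads per gene, and normalized counts (a signal, reads divided by a size factor per library). The count table as read here ended inside a line and lacked 6912 genes of the normalized table. These held 8.26% to 11.7% of all reads in a library. Genes listed only in the second table were turned back into reads: 55296 of 55296 values were whole within 0.01.

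In edgeR 4.0.16 (R 4.3.3), 14850 genes (17863 with recovered reads) passed filterByExpr at a minimum count of 10, and 1 mean per group was fitted with TMM scaling (factors 0.948 to 1.03), leaving 4 residual degrees of freedom. The quasi-likelihood test with Benjamini-Hochberg adjustment over all genes tested called genes at 0.05. It draws the spread of each gene partly from the spread of the other genes tested. TUBB3, TUBGCP5 and ENSG00000272540 come from the fit with recovered reads. A floor of 3 reads is 0.257 to 0.323 CPM. Annotation was GENCODE 29, and sequences came from RefSeq. TBCE was not analysed here. A further gene of the related lists is not reported here by name.

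All 10 members are named, with up to 3 genes of each related list by smallest p at 24 h and the 3 genes most like the members with the largest rise and fall. TTC5, overlapping genes and other members of small groups of calls were added after their values were seen. Members and lists were chosen with earlier results of these data known. Alternatives were another scaling, DESeq2 1.42.0, no count filter, a fit of only the groups compared, a replicate block, recovered reads, and leaving out each library.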

Additional observations from a re-analysis of the deposited data

Results flagged for a closer look

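For 7 tubulin genes the effect of EMD37 at 24 h differed from its effect at 12 h by the test of the difference itself, and in each the effect was lower at 24 h. The log2 differences were -0.76 for TUBB4B (adjusted p = 0.0107), -0.71 for TUBG1 (0.0157), -0.53 for TUBB (0.00652), -0.48 for TUBA1C (0.0279), -0.48 for TUBA4A (0.0155), -0.47 for TUBA1B (0.0138) and -0.31 for TUBB6 (0.0458), all by the quasi-likelihood test of edgeR. The call for TUBB6 was lost under DESeq2 size factors (adjusted p = 0.0844), the DESeq2 test (0.0935) and no filter on low counts (0.197). It was also lost with the added recovered reads (0.0894), with the replicate block (0.0779) and with each of the 8 libraries left out. The call for TUBB4B was lost under the DESeq2 test (0.0913) and without 2 of the 8 libraries in turn. Leaving out single libraries also ended the call for TUBA1C in 5 cases, for TUBA1B and TUBA4A in 4 each, for TUBG1 in 3 and for TUBB in 2. Such fits leave 1 library in a group. Lower calls over all genes also became fewer in these fits, except without either vehicle 24 h library.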

How the results depend on the processing

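At 24 h the split of 7 lower and 1 higher held under every alternative except without EMD37 24 h replicate A, which left 6 lower, TUBA1B being lost, so leaving out single libraries gave 6 to 7. The letters A and B are not said to pair libraries, and correlations of the A minus B differences between groups ran from -0.16 to 0.16. With the replicate block, calls were 0 at 12 h, 7 lower and 1 higher at 24 h, and 6 lower in the interaction, where the call for TUBB6 was lost (adjusted p = 0.0779). A block with the letters crossed in EMD37 at 24 h, added after seeing the data, called 1 higher at 12 h, 7 lower in the interaction and 3 higher between vehicle times. The interaction had 6 lower calls with DESeq2 size factors in edgeR, 5 with the DESeq2 test and 6 with no filter. It had fewer than in the main fit when any single library was left out. At 12 h TUBA1A was the 1 gene called higher in a fit of only the groups compared, and 0 to 1 were called without single libraries. Between vehicle times no filter called 2 higher (TUBG1 and TUBB4B). Calls between vehicle times also moved without single libraries, but such fits leave a group with 1 library.

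Uncalled log2 values changed sign when single libraries were left out. At 12 h these ranged from -0.0042 (without EMD37 12 h B) to 0.24 for TUBA1B, from -0.0043 (without vehicle 12 h A) to 0.32 for TUBG1, from -0.27 to 0.097 (without EMD37 12 h A) for TUBA1C, and from -0.085 to 0.043 (without EMD37 12 h A; 0.041 without vehicle 12 h B) for TUBB. At 24 h they ranged from -0.019 to 0.077 for TUBB2A and from -0.094 to 0.89 for TUBB3, both lowest without vehicle 24 h A. TUBB2A ranged from -0.14 to 0.018 in the interaction and from -0.023 to 0.13 between vehicle times, turning without vehicle 12 h A. Where calls moved, the cause was not tested. Over all genes, a fit of only the groups compared called 1394 higher and 1109 lower at 12 h, against 782 and 510, and 42 higher and 83 lower between vehicle times, against 408 and 482. TUBB3, at 17 to 48 reads a library, is the member that depth limits most.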
